A study of Mus musculus with 8 samples.

Results

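Membrane peptidases are enzymes anchored at the cell surface that cut peptide hormones and so end, or sometimes start, their signal. The 7 genes described here encode such enzymes: Mme, Ece1, Anpep, Enpep, Ace, Cpm and Dpp4. They were chosen by function around Mme, which had come into view because its signal differed between the genotypes. For each gene the probe set with exactly 1 annotated symbol was taken and, where a gene had several, that of the highest mean. Each of the 7 genes had 1 such probe set, so the level rule chose nothing among them. The 7 genes are part of 22180 genes with such a probe set and of 13112 genes tested, and all 7 passed the level filter, a mean log2 signal above 5.18.

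Club cells, which secrete protective proteins into the airways, had been isolated from the lungs of Atgl KO/cTg mice and of wt/cTg mice. Atgl, now Pnpla2, encodes the lipase that takes the first fatty acid off a triglyceride. Both genotypes carry cTg, an abbreviation left unexplained in the labels, and no treatment was given. Each of the 4 Atgl KO/cTg arrays held RNA pooled from 4 mice (16 mice), and each of the 4 wt/cTg arrays RNA from 3 or 4 mice (14 mice), all aged 38 to 48 weeks on a chow diet. A replicate is thus a pool of animals, and its number here follows the order of the samples. The design text speaks of 4 sets of both genotypes without saying which pools form a set. Mouse numbers in the sample titles are consecutive or close between pools of both genotypes in 3 runs, which hold 7 of the 8 pools. The run that holds replicate 4 of each genotype has a gap in its numbers, and the other runs have none. A fit with these 3 runs as a block is given with the alternatives.

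Peptide hormones such as bradykinin, the angiotensins, the endothelins, the tachykinins and the natriuretic peptides act near their source or through the blood, and surface peptidases limit how far and how long they act. Mme (neprilysin) is a zinc endopeptidase that cuts bradykinin, substance P, enkephalins, natriuretic peptides and endothelin. Ece1, of the same peptidase family, makes active endothelin from its precursor. Anpep and Enpep are aminopeptidases, Ace and Cpm remove residues from the other end of the chain, and Dpp4 is a serine peptidase that removes dipeptides from the start of peptides, incretin hormones among them. In the lung, Ace is known for its place on capillary endothelium.

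Facts on the whole series bear on these values as follows. Pnpla2 read 6.70 to 7.16 in the Atgl KO/cTg pools and 8.62 to 8.86 in the wt/cTg pools, a log2 difference of -1.72 (SE 0.11, limma adjusted p = 0.000116). The club cell marker Scgb1a1 averaged 12.92 ± 0.10 in the Atgl KO/cTg pools and 12.99 ± 0.08 in the wt/cTg pools (SD, n = 4 each), and markers of other cell types were also high, such as Sftpc of alveolar type 2 cells (12.53 and 12.93) and Dcn of fibroblasts (11.70 and 11.81). Of 13 tested club cell markers, 2 had a genotype difference below 0, Scgb1a1 among them, and 11 lay above 0. In bulk samples such as these, fewer cells of a type and less RNA per cell cannot be told apart. One pool stood apart: in wt/cTg replicate 4, Xist read 3.75 against 9.34 to 10.67 in the other pools. Other sex-linked genes, Kdm5d, Eif2s3y and Uty, were highest in that pool (7.05, 7.9965 and 5.92). Kdm5d read 5.74 to 6.51 in the Atgl KO/cTg pools, against 5.27 to 5.51 in wt/cTg replicates 1 to 3. Eif2s3y read 6.49 to 7.17 against 6.03 to 6.36 in the same pools, while Uty overlapped. Leaving out wt/cTg replicate 4 thus does not even out these genes. The genotype difference of each of the 7 genes is also given without wt/cTg replicate 4.

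Mme and Enpep had the lowest differences of the 7 genes, and the start regions of both are shown for that reason. Both genes lie on chromosome 3. The windows come from RefSeq on build GRCm38.p6, run 5′ to 3′ from 250 bases before to 50 bases after the most upstream annotated start, and are in lower case with motif matches in capitals. The Mme window is chr3:63294961-63295260 on the plus strand, and the Enpep window is chr3:129332700-129332999 on the minus strand.
Mme: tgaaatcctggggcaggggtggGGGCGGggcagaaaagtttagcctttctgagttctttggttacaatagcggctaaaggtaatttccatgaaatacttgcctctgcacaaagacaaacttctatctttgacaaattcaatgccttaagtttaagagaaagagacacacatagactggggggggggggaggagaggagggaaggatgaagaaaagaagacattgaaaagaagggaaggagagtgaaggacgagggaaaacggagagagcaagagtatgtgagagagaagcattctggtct
Enpep: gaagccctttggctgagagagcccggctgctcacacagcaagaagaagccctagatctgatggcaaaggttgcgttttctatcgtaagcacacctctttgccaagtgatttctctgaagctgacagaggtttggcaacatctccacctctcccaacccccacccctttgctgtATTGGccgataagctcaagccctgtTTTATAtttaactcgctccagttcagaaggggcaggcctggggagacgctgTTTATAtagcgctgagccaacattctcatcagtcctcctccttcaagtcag
The TATA box (TATAAA), the GC box (GGGCGG) and the CCAAT box were searched on both strands, and no matches in these 2 windows overlap. The Mme window held 1 GGGCGG match and no match of the other motifs, and RefSeq lists 3 start windows for Mme, of which only the most upstream is shown. The Enpep window held 2 TATAAA matches, 1 CCAAT match and no GGGCGG match. Of 27025 genes' most upstream windows, 14.2% held TATAAA, 35.9% GGGCGG and 38.0% CCAAT. G and C made up 46.0% of the Mme window and 51.3% of the Enpep window, against a median of 52.7% over all windows and 69.3% to 73.7% in the windows of Ece1, Anpep, Ace and Cpm. The Dpp4 window had the lowest share of the 7 genes, 45.3%. These matches describe the letters of the windows and not sites in use.

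Mme signal separated the genotypes, with all 4 Atgl KO/cTg pools below the lowest wt/cTg pool. Mme read 7.50, 7.37, 7.65 and 7.82 on the log2 scale in Atgl KO/cTg replicates 1 to 4, against 8.33, 8.91, 8.39 and 9.01 in wt/cTg replicates 1 to 4. The groups were 0.51 apart at their nearest pools, and the wt/cTg pools fell into a lower pair (replicates 1 and 3) and a higher pair (replicates 2 and 4). Mean signal was 7.58 ± 0.19 in the Atgl KO/cTg pools, against 8.66 ± 0.35 in the wt/cTg pools (SD, n = 4 each), a log2 difference of -1.08 (SE 0.16, 95% interval -1.44 to -0.72) or a ratio of 0.474. By size this was the 12th lowest difference of the 13112 genes tested. Because this difference brought Mme into view, it is given as a description. Without wt/cTg replicate 4 it was -0.96.

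**Figure D1:**
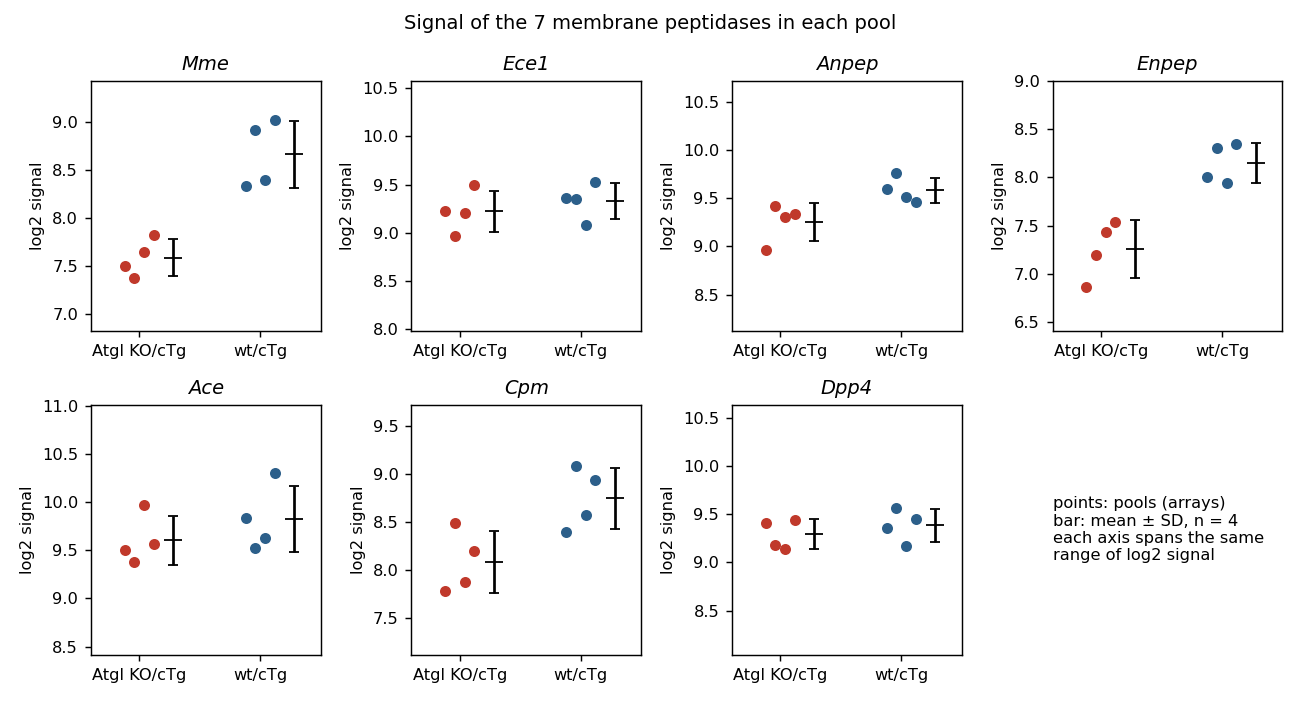
Log2 signal (y axis) of each of the 7 membrane peptidases in the 4 Atgl KO/cTg pools (red) and the 4 wt/cTg pools (blue), with mean ± SD beside the points. The groups do not overlap for Mme, Enpep and Anpep, and overlap for Cpm, Ace, Ece1 and Dpp4.

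Of the 7 genes, Mme passed the limma threshold (adjusted p under 0.05 over all genes tested) and was lower in Atgl KO/cTg, beside 0.0839% of all genes tested called lower and 0.0991% called in either direction. The other 6 genes did not pass. All 7 differences lay below 0, as did 52.2% of all genes tested, and their median was -0.33 beside -0.01 over all genes tested. Groups did not overlap, with Atgl KO/cTg lower, for 3 of the 7 genes (Mme, Enpep and Anpep), beside 2.62% of all genes tested. At an unadjusted p under 0.05, 4 of the 7 genes were lower, beside 4.56% of all genes tested. Since the members were taken up with this contrast known, these counts describe the set and support nothing.

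Enpep, aminopeptidase A, which removes acidic residues from the start of peptides and turns angiotensin II into angiotensin III, came nearest to Mme. It read 6.86, 7.19, 7.44 and 7.54 in Atgl KO/cTg replicates 1 to 4, against 8.002, 8.30, 7.94 and 8.35 in wt/cTg replicates 1 to 4. All Atgl KO/cTg pools lay below all wt/cTg pools, with 0.40 between the nearest pools, and replicates 2 and 4 were again the higher wt/cTg pair. The log2 difference was -0.89 (SE 0.15, 95% interval -1.23 to -0.55) and did not pass over all genes (limma adjusted p = 0.0932). Its means were 7.26 ± 0.30 in the Atgl KO/cTg pools, against 8.15 ± 0.21 in the wt/cTg pools (SD, n = 4 each), a ratio of 0.538. By size it was the 24th lowest difference of all genes tested, and it was -0.83 without wt/cTg replicate 4.

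Anpep is aminopeptidase N, which removes neutral residues from the start of peptides. It read 8.97, 9.42, 9.30 and 9.33 in Atgl KO/cTg replicates 1 to 4, against 9.59, 9.76, 9.52 and 9.46 in wt/cTg replicates 1 to 4. The groups did not overlap, but only 0.04 lay between the nearest pools, and Atgl KO/cTg replicate 1 was the lowest of all. The log2 difference was -0.33 (SE 0.11, 95% interval -0.56 to -0.09, limma adjusted p = 0.456), and -0.37 without wt/cTg replicate 4.

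Cpm and Ace trim the other end of the chain. Cpm, carboxypeptidase M, which removes arginine and lysine from the end of peptides such as the kinins, read 7.78, 8.49, 7.88 and 8.20 in Atgl KO/cTg replicates 1 to 4, against 8.40, 9.08, 8.57 and 8.94 in wt/cTg replicates 1 to 4. Atgl KO/cTg replicate 2 lay above wt/cTg replicate 1, and the other Atgl KO/cTg pools lay below all wt/cTg pools. The difference was -0.66 (SE 0.18, 95% interval -1.05 to -0.26, limma adjusted p = 0.398), and -0.60 without wt/cTg replicate 4. Ace, which makes angiotensin II and inactivates bradykinin, read 9.50, 9.38, 9.97 and 9.56 in Atgl KO/cTg replicates 1 to 4, against 9.83, 9.52, 9.63 and 10.31 in wt/cTg replicates 1 to 4. The groups overlapped, and wt/cTg replicate 4 was the highest pool. The Ace difference was -0.22 (SE 0.17, 95% interval -0.59 to 0.15, limma adjusted p = 0.797) and depended on that pool, since it was -0.06 without it.

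Ece1 and Dpp4 had the smallest differences. Ece1 read 9.22, 8.97, 9.20 and 9.49 in Atgl KO/cTg replicates 1 to 4, against 9.37, 9.35, 9.08 and 9.52 in wt/cTg replicates 1 to 4. Dpp4 read 9.41, 9.18, 9.14 and 9.44 in Atgl KO/cTg replicates 1 to 4, against 9.36, 9.57, 9.17 and 9.45 in wt/cTg replicates 1 to 4. For both genes the ranges of the groups overlapped over most of their width. The Ece1 difference was -0.11 (SE 0.12, 95% interval -0.37 to 0.16, limma adjusted p = 0.873) and the Dpp4 difference -0.09 (SE 0.10, 95% interval -0.32 to 0.13, limma adjusted p = 0.869). Without wt/cTg replicate 4 they were -0.04 and -0.07. With any 1 pool left out, Ece1 ran from -0.20 to -0.02 (highest without Atgl KO/cTg replicate 2) and Dpp4 from -0.17 to -0.03 (highest without wt/cTg replicate 2). These intervals do not reach a difference of the size seen for Mme, and they do not show that the genotypes were alike.

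**Figure D2:**
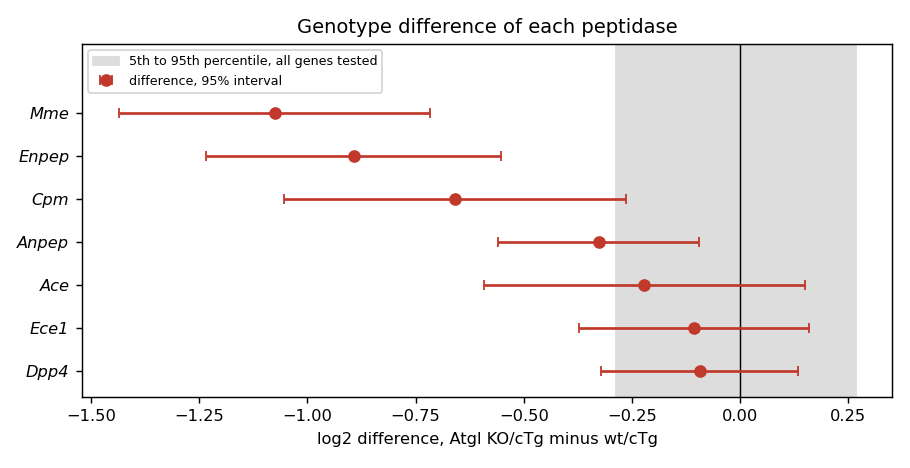
Log2 difference (x axis, Atgl KO/cTg minus wt/cTg) of each peptidase with its 95% interval, beside the range from the 5th to the 95th percentile of all 13112 genes tested (grey, -0.29 to 0.27). Mme (-1.08), Enpep (-0.89), Cpm (-0.66) and Anpep (-0.33) lie below the grey range, while Ace, Ece1 and Dpp4 lie inside it.

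Within each array, Mme was set against each of the other 6 genes. The size of such a gap between genes says nothing on this platform, since probe sets differ in brightness, so only its change between the genotypes is read. Mme minus Dpp4 averaged -1.71 ± 0.19 in the Atgl KO/cTg pools, against -0.73 ± 0.25 in the wt/cTg pools, and Mme minus Ece1 averaged -1.64 ± 0.08 in the Atgl KO/cTg pools, against -0.67 ± 0.27 in the wt/cTg pools (SD, n = 4 each). The change was thus -0.98 relative to Dpp4 and -0.97 relative to Ece1, and the groups did not overlap for either. It was -0.85 relative to Ace, -0.75 relative to Anpep and -0.42 relative to Cpm, also with no overlap. For Cpm it leaned on Atgl KO/cTg replicate 2, at -1.12 against -0.38 to -0.23 in the other Atgl KO/cTg pools. Without that pool the change relative to Cpm was -0.21. Relative to Enpep the change was -0.18, with 0.33 ± 0.21 in the Atgl KO/cTg pools, against 0.51 ± 0.15 in the wt/cTg pools (SD, n = 4 each), and the groups overlapped. These changes contain the contrast that brought Mme into view and were not tested.

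Likeness was measured as Pearson r over the 8 arrays, and again after each genotype was centred on its own mean. Both are descriptions over the same 8 pools, which differ in genotype and in marker levels. Among the 21 pairs of the 7 genes, Mme and Enpep had the highest r (0.957, and 0.770 after centring). Mme and Ece1, which belong to one peptidase family, had r of 0.553 and 0.724, and the aminopeptidases Anpep and Enpep had 0.838 and 0.571. Ace and Dpp4 had the lowest pooled r of all pairs, 0.0408.

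Over all genes tested, the 5 genes most like Mme were Lpcat1 (r 0.977, centred 0.876), Tpm1 (0.973, 0.899), Fnta (0.969, 0.863), Enpep, and Prcp (0.954, 0.812). Lpcat1 is an enzyme of surfactant phospholipid synthesis and is on the list of alveolar type 2 cell markers, and its log2 difference was -0.90. The median r of Mme to the 17 tested markers of that list was 0.895, and 0.550 after centring. It was 0.839 to the cardiac muscle markers (0.218 after centring), 0.7685 to the smooth muscle markers (0.3416) and 0.650 to the endothelial markers (0.580). After centring, the T and NK cell (-0.806), sex-linked (0.675) and B cell (-0.668) lists had medians larger by size than these. Prcp, a carboxypeptidase that cuts angiotensins and kinins, had a difference of -0.15. For Enpep the 5 most like were Tpm1, Nrp1, Fnta, Fbxo30 and Vldlr (r 0.969 to 0.979, centred 0.870 to 0.956), so Tpm1 and Fnta stood in both lists.

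The genes most like Cpm were Ank3, Fasn, Lgi3, Clec4b1 and Cox6a2 (r 0.952 to 0.971). Fasn, the fatty acid synthase, kept an r of 0.991 to Cpm after centring, and Lgi3 had a log2 difference of -1.25. For Ace they were Pcnx, Hspa5, Acvrl1, a receptor of endothelial cells, Gdpd3 and Edn3, the precursor of endothelin 3 (r 0.946 to 0.958). For Anpep they were Dnajc14, Kctd12, Tsen15, B3gat3 and Arhgef2 (r 0.968 to 0.976). Ece1 was most like Apbb2, Guf1, Fnip1, Wasf3 and Spon2 (r 0.952 to 0.960), and Dpp4 most like Ghr, Lamp2, Iqsec2, Ccndbp1 and Unc45a (r 0.951 to 0.963). No gene stood in the first 5 of more than 1 of the 7 genes except Tpm1 and Fnta.

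Marker lists of other cell types moved with genotype beside Mme and Enpep. Of 18 alveolar type 2 markers 17 were tested, all 17 lay below 0 (median -0.41) and 5 fell over all genes: Sftpc, Lamp3, Slc34a2, Etv5 and Hc. Of all genes tested, 52.2% lay below 0 and 0.0839% were called lower. Their mean log2 signal was 9.99 to 10.22 in the Atgl KO/cTg pools and 10.40 to 10.88 in the wt/cTg pools, with no overlap. Sftpa1, of the same list, averaged 12.05 ± 0.08 in the Atgl KO/cTg pools, against 12.18 ± 0.12 in the wt/cTg pools (SD, n = 4 each), and did not pass. In wt/cTg the list was lowest in replicate 1 and highest in replicate 4, which also held the lowest and highest Mme. Of 8 smooth muscle markers 6 were tested and all 6 lay below 0 (5.95 to 6.39 in the Atgl KO/cTg pools, against 6.47 to 7.02 in the wt/cTg pools, no overlap). Of 9 cardiac muscle markers 8 were tested and 6 lay below 0 (6.57 to 6.73 in the Atgl KO/cTg pools, against 7.03 to 7.21 in the wt/cTg pools, no overlap), with Actc1 and Tnnt2 called lower. With runs of mouse numbers as a block, none of these 7 called markers passed (limma adjusted p 0.0945 to 0.189).

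The fibroblast, endothelial and alveolar type 1 lists overlapped between the genotypes. The 18 fibroblast and pericyte markers, 14 of them below 0, averaged 8.14 to 8.73 in the Atgl KO/cTg pools, against 8.58 to 8.97 in the wt/cTg pools. The 16 endothelial markers, 13 of them below 0, averaged 8.13 to 8.64 in the Atgl KO/cTg pools, against 8.38 to 9.09 in the wt/cTg pools. The 14 alveolar type 1 markers, 13 of them below 0, averaged 8.10 to 8.47 in the Atgl KO/cTg pools, against 8.27 to 9.04 in the wt/cTg pools. Of 14 club cell markers 13 were tested and 11 lay above 0 (11.54 to 11.60 in the Atgl KO/cTg pools, against 11.20 to 11.51 in the wt/cTg pools, no overlap). All 8 tested neutrophil markers lay above 0 (median 0.52), and their mean was 7.996 to 8.95 in the Atgl KO/cTg pools, against 7.78 to 8.47 in the wt/cTg pools. Of them 4 had an unadjusted limma p under 0.05, beside 7.95% of all genes tested in either direction. So did 15 of 17 alveolar type 2, 4 of 6 smooth muscle, 5 of 8 cardiac muscle and 6 of 13 club cell markers. Further such counts were 6 of 18 fibroblast and pericyte, 3 of 14 alveolar type 1, 2 of 16 endothelial and 2 of 11 ciliated markers. All 11 tested ciliated markers lay above 0 (median 0.23), with means of 7.79 to 8.30 in the Atgl KO/cTg pools, against 7.44 to 8.05 in the wt/cTg pools. No neutrophil or ciliated marker passed over all genes. The lowest single value of any listed marker was 3.30 on the log2 scale, which is below the level filter of 5.18. Whether such low values stand above background was not tested. The part of these markers in the values of the 7 peptidases was not tested.

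**Figure D3:**
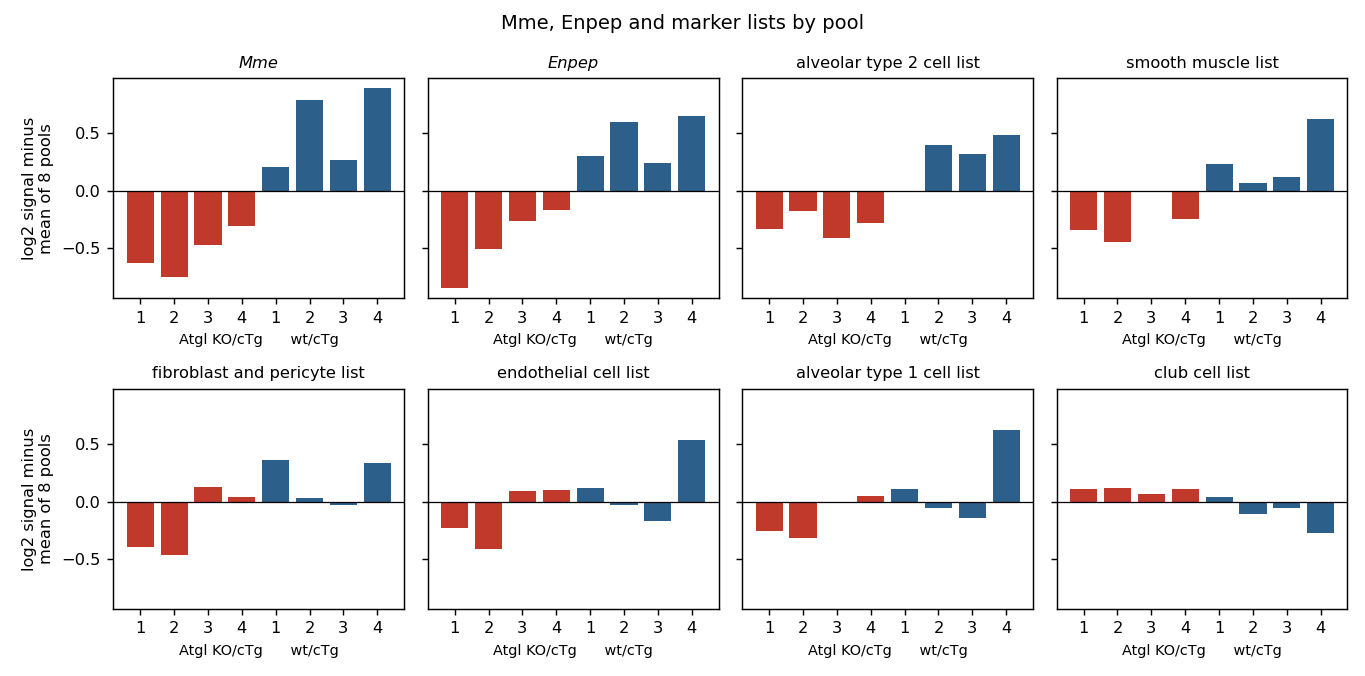
Log2 signal of Mme and Enpep and mean log2 signal of 6 marker lists in each pool, as the distance from the mean of the 8 pools (y axis), for Atgl KO/cTg replicates 1 to 4 (red) and wt/cTg replicates 1 to 4 (blue). Mme, Enpep and the alveolar type 2 list are below their mean in all Atgl KO/cTg pools, and wt/cTg replicate 4 is the highest pool for these and for the smooth muscle, endothelial and alveolar type 1 lists.

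Other genes of peptide hormone breakdown and signalling were read from 4 lists, 130 entries in all, of which 72 were tested. No gene of these lists passed over all genes (limma adjusted p under 0.05), beside 0.0991% of all genes tested called in either direction. At an unadjusted p under 0.05 there were 9 entries, beside 7.95% of all genes tested in either direction.

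Of 38 related peptidases 35 had a probe set and 23 were tested. Their median was -0.00 (11 above 0 and 12 below), and 1 had an unadjusted p under 0.05. Groups did not overlap for 2, Dpp7 and Prcp, beside 4.35% of all genes tested in either direction. The nearest Dpp7 pools were almost equal, 6.8212 (Atgl KO/cTg) and 6.8211 (wt/cTg), and those of Prcp read 9.10 and 9.14. The largest differences were those of Dpep1, a membrane dipeptidase (-0.47, limma adjusted p = 0.562), Dpp3, a dipeptidyl peptidase of the cytosol (0.29, 0.645), and Lap3, a leucine aminopeptidase (0.28, 0.682). Without wt/cTg replicate 4 these values were -0.31 for Dpep1, 0.16 for Dpp3 and 0.18 for Lap3, and Dpep1 was also at -0.31 without Atgl KO/cTg replicate 1. Dpep1 averaged 8.97 ± 0.34 in the Atgl KO/cTg pools, against 9.45 ± 0.35 in the wt/cTg pools (SD, n = 4 each), and the groups overlapped.

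Of 34 peptide precursors 33 had a probe set and 15 were tested, with 6 above 0, 9 below and a median of -0.03, and groups did not overlap for 3 (Edn1, Nppc and Ghrl), beside 4.35% of all genes tested in either direction. Edn1, the precursor of endothelin 1, which Ece1 activates and Mme cuts, had the largest difference of these lists. It read 6.42, 5.65, 7.03 and 6.47 in Atgl KO/cTg replicates 1 to 4, against 7.09, 7.38, 7.17 and 7.66 in wt/cTg replicates 1 to 4. All Atgl KO/cTg pools lay below all wt/cTg pools, and Atgl KO/cTg replicate 2 was the lowest. The difference was -0.93 (SE 0.24, limma adjusted p = 0.367), -0.68 without Atgl KO/cTg replicate 2. Ghrl, the ghrelin precursor, was at 0.51 (limma adjusted p = 0.524), and at 0.33 without wt/cTg replicate 1. Penk, the enkephalin precursor, was at -0.31 (limma adjusted p = 0.645).

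Of 48 peptide receptors 45 had a probe set and 28 were tested, 14 above 0 and 14 below, with a median of -0.00 and no gene whose groups did not overlap. The largest differences were those of Npr2, a natriuretic peptide receptor (-0.49, limma adjusted p = 0.546), Calcrl, the receptor chain for adrenomedullin and calcitonin gene-related peptide (-0.48, 0.496), and Cckar, a cholecystokinin receptor (0.41, 0.399). Calcrl is also on the endothelial list and Cckar on the club cell list. Of 10 renin-angiotensin and kinin enzymes 7 had a probe set and 6 were tested, 5 above 0 and 1 below, with a median of 0.08. Groups did not overlap for 1, Tmprss2, whose nearest pools read 8.46 (Atgl KO/cTg) and 8.41 (wt/cTg). Of all genes tested, groups did not overlap for 4.35% in either direction, which stands beside the counts of both lists. Tmprss2, a membrane serine protease, was at 0.33 (limma adjusted p = 0.446), Adam17, a shedding protease, at -0.22 (0.615) and Klk1, tissue kallikrein, at 0.17 (0.903), whose sign turned without Atgl KO/cTg replicate 2 (-0.04).

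**Figure D4:**
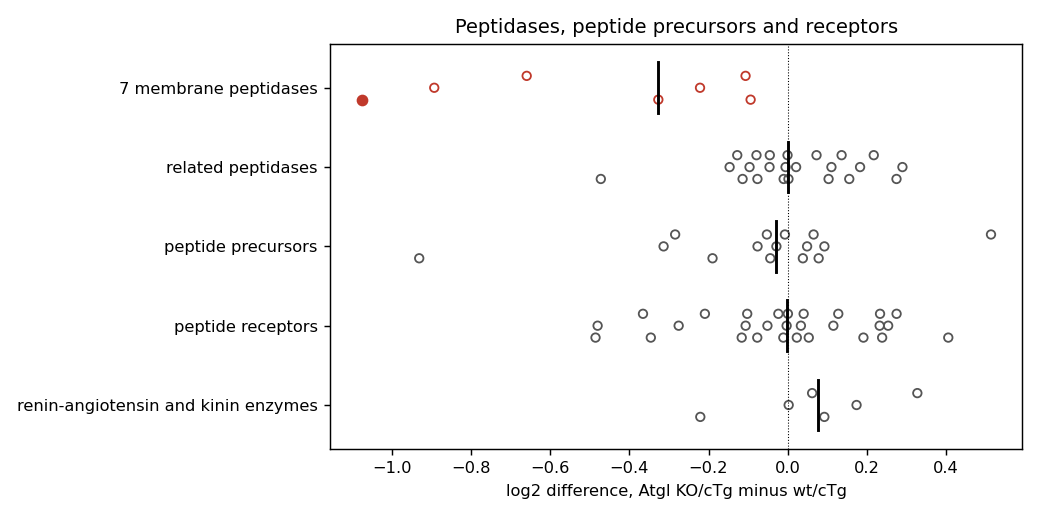
Log2 difference (x axis, Atgl KO/cTg minus wt/cTg) of each tested gene of the 7 membrane peptidases (red) and the 4 other lists (grey), with list medians as vertical bars and the gene past the threshold filled. The median of the 7 peptidases is -0.33 and those of the other lists lie between -0.03 and 0.08.

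The Mme call rested on settings and on single pools, while its size moved little. The difference ran from -1.19 to -0.96 over 18 alternatives. It passed the threshold in 7 of them: with a stricter level filter (mean above 5.87), with median centring, with array weights, with several probe sets of a gene averaged, with a sex-linked score as covariate, with runs of mouse numbers as a block, and without wt/cTg replicate 1. With any one of the other 7 pools left out, Mme did not pass. Enpep ran from -0.99 to -0.76 and passed in 0 of the 18 (limma adjusted p 0.0525 to 0.339), as did each of the other 5 genes.

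**Figure D5:**
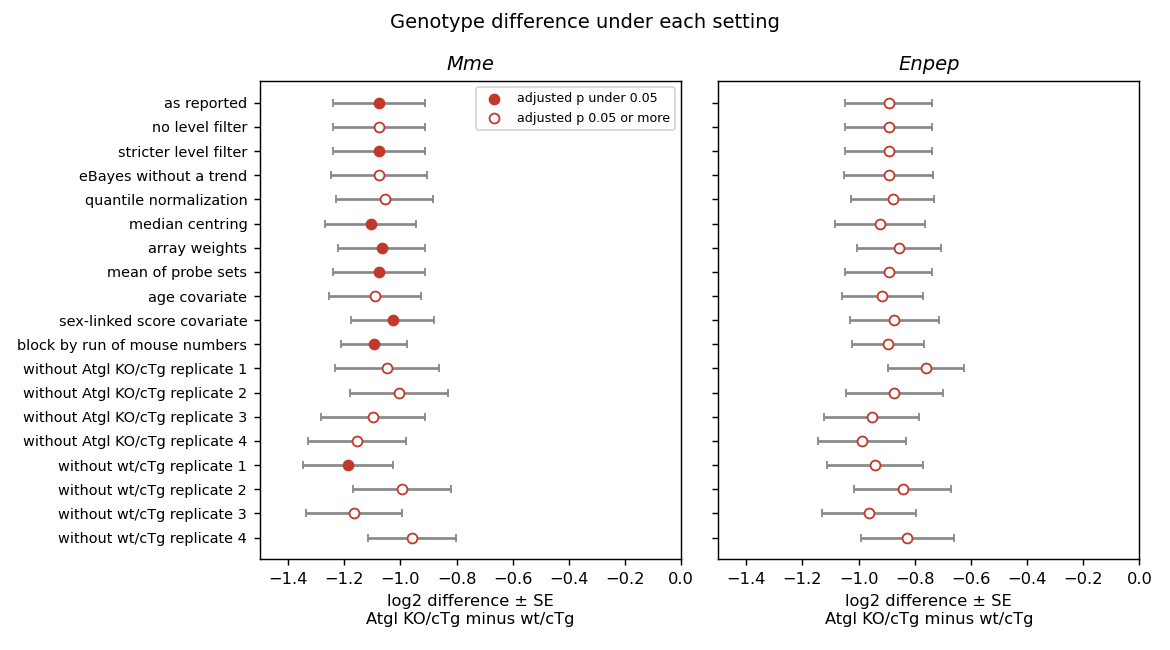
Log2 difference ± SE (x axis, Atgl KO/cTg minus wt/cTg) of Mme and Enpep as reported and under 18 alternatives (y axis). Filled points passed limma's adjusted p of 0.05, which Mme did in 7 alternatives and Enpep in 0, and all points lie at or below -0.76.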

How the data were processed

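Club cell RNA of 4 Atgl KO/cTg and 4 wt/cTg pools was measured on a mouse expression array. A miRNeasy Micro kit with DNase treatment gave the RNA, and 50 ng of it entered the NuGen Ovation Pico WTA labelling (biotin), per the labels' protocols. The authors deposited log2 signals, 1 per probe set and array (1.85 to 13.5), used here as they stand. Their range sets the unit as log2. The sources used here name no software, background correction, normalization, batch or scan date. Signal over background could not be tested, and the number of arrays limits precision.

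Of 41345 probe sets, 23521 had 1 annotated symbol, 1814 several and 16010 none. Genes were named from probe sets with 1 symbol, which gave 22180 genes, and those with a mean above the median of all probe sets (5.18) were tested. The test was limma 3.58.1 (R 4.3.3; two-sided, lmFit and trended eBayes) with Benjamini-Hochberg adjustment over 13112 genes. Each difference subtracts the wt/cTg mean from the Atgl KO/cTg mean. The fit left out any set or litter shared by pools, since the labels name none, so p-values measure the spread between pools. The fit was tested on simulated data.

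The members and the gene lists were chosen with earlier results of these data known. Genes named are the 7 members, Pnpla2, the 3 largest differences of each pathway list, the 5 genes with the highest r to each member, and at most the 2 markers with the highest mean of a cell type list. Other called markers, the sex-linked genes (Xist, Kdm5d, Eif2s3y and Uty), Dpp7 and Nppc were named after their values were seen. Alternatives changed the probe set rule, level filter, normalization, array weights or variance prior, added age or a sex-linked score, or left out 1 array. A block for runs of mouse numbers in the titles was added after the data were seen. Macrophage, B cell, T and NK cell and mesothelial lists had medians of -0.00, -0.06, -0.01 and 0.11 with no gene called. Figures were drawn with matplotlib 3.10.9. Promoter windows are from RefSeq tables.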

Additional observations from a re-analysis of the deposited data

Results flagged for a closer look

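Among 76 groups of 4 pools checked for a pool far from the others, 2 held one, and chance gives about 1 in 20. The check did not cover every marker, and Xist, given above for its low pool, was outside it. Neither was among the 7 peptidases. Cckar, the cholecystokinin receptor, read 10.45 in Atgl KO/cTg replicate 3 against 10.65 to 10.66 in the other Atgl KO/cTg pools. Ghrl, the ghrelin precursor, read 6.03 in wt/cTg replicate 1 against 6.76 to 6.79 in the other wt/cTg pools.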

How the results depend on the processing

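All 7 peptidases kept a difference below 0 under all 18 alternatives. Mme did not pass with no level filter (-1.08), without a variance trend (-1.08), with quantile normalization (-1.06) or with age as a covariate (-1.09), and the cause was not tested. With 1 pool left out Mme ran from -1.19 to -0.96. The 13 genes called over all genes became 7 with no level filter (22180 genes tested) or with age, 1 without a variance trend or with quantile normalization, and 23 with array weights. With 1 pool left out the count ran from 1 to 25. Among the Atgl KO/cTg pools it was 1 when replicate 1 was left out, 18 for replicate 2, and 2 for replicate 3 as for replicate 4. Among the wt/cTg pools it was 25 when replicate 1 was left out, 2 for replicate 3, and 1 for replicate 2 as for replicate 4. Quantile normalization and median centring changed no direction of a peptidase. Klk1 turned to -0.044 without Atgl KO/cTg replicate 2 and ran up to 0.386 with another pool left out. The precursor list's median was 0.04 with no level filter and 0.06 without wt/cTg replicate 3, and 0.02 with the block. The change of Mme relative to each other peptidase kept its direction in all 18 alternatives. A replicate block for the 3 runs of mouse numbers that hold both genotypes (the last pool, wt/cTg replicate 3, alone) was chosen after seeing the data: Mme was -1.09 and passed, and the count of called genes became 3. That these runs are the 4 sets of the design text is not stated, and the run of replicate 4 of each genotype has a gap in its mouse numbers. Whether low signals lie above background could not be tested.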

Other observations

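Some genes of the peptide lists lay below the level filter and were not tested. Groups did not overlap for 4 of 48 such genes (8.33%), beside 3.05% of all 9068 genes below the filter. They are Bdkrb2, Mmel1, Calcr and Npy5r, named after their values were seen. Bdkrb2, the bradykinin B2 receptor, whose ligand Mme, Ace and Cpm cut, read 5.02, 4.40, 4.85 and 4.84 in Atgl KO/cTg replicates 1 to 4, against 5.43, 5.24, 5.33 and 5.62 in wt/cTg replicates 1 to 4, a log2 difference of -0.63. Mmel1, a close relative of Mme, averaged 4.72 ± 0.09 in the Atgl KO/cTg pools, against 4.89 ± 0.10 in the wt/cTg pools (SD, n = 4 each), a log2 difference of -0.17. The nearest Mmel1 pools were almost equal, 4.8152 (Atgl KO/cTg) and 4.82 (wt/cTg). Calcr, the calcitonin receptor, was at 0.17 and Npy5r, a neuropeptide Y receptor, at 0.31. Whether these low signals stand above background was not tested.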
